A study of Zea mays with 14 samples.

Results

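In germinating maize axes, 255 of the 17555 probe sets other than controls met a rule for lower values in polysomal RNA than in total RNA. They were chosen by their measured values. A probe set is a group of short array probes designed for 1 transcript, or for several that share sequence. In each of the 255, the highest of the 6 polysomal arrays lay below the lowest of the 5 arrays of germinated total RNA, and the polysomal mean was lower by at least 1 on the log2 scale, which is 2-fold. The mean of the arrays of 24 h sample M4 also had to lie within 3 log2 units of the mean of the quiescent arrays. The polysomal deficit, and every direction that follows from it, is therefore a description and carries no test.

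All samples were embryonic axes of maize (Zea mays), the part of the embryo that forms the root and the shoot, dissected by hand. Polysomal RNA with insulin (3 samples) and polysomal RNA without insulin (3 samples) came from axes of seeds imbibed for 22 h and then held for 2 h in Murashige and Skoog medium, with bovine insulin at 200 µU/mL or with none. Total RNA with insulin (1 sample, 2 arrays) came from axes given the same 22 h and 2 h with insulin. Total RNA of 24 h axes (samples M4, with 2 arrays, and RB) came from germinated seeds, and the labels do not say whether these axes also spent 2 h in medium. Total RNA of quiescent axes (sample 1, with 2 arrays, and sample 2) was taken at 0 h. There were 14 arrays from 11 biological samples. The polysomes were concentrated through a sucrose cushion, and no polysomal RNA of quiescent axes was analysed here. The labels name no cultivar and give no link between a polysomal sample and a total RNA sample.

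A polysome is an mRNA carrying several ribosomes at once, so an mRNA recovered with polysomes is generally one being translated. An mRNA can be outside polysomes because it is bound by few ribosomes, is held in a ribonucleoprotein particle, or lies in the nucleus. Mature dry seeds hold stored mRNAs, made while the embryo developed, and a germinating axis both uses and degrades them while new transcripts are made. An array value has meaning only beside the other RNAs hybridised to that array. In whole axes, fewer cells of a type and less RNA per cell cannot be told apart.

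The rule removed most probe sets at its first steps. Of the 17555, 1232 (7.02%) had every polysomal array below every germinated total array, and 270 of these also reached the 2-fold difference. The bound on M4 against quiescent axes then removed 15, of which 7 were lower and 8 higher in M4 than in quiescent axes. A further 122 probe sets reached the 2-fold difference with overlapping arrays and were not members. By the same rule turned round, 94 probe sets were over-represented on polysomes.

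The thresholds cut through a continuous range of values. Inside, Zm.3821.1.A1_at, Zm.15970.1.A1_at and Zm.19128.1.S1_at differed by -1.0004, -1.002 and -1.003. Just outside, Zm.17176.1.S1_at, Zm.856.1.A1_a_at and Zm.5969.2.A1_a_at differed by -0.999, -0.997 and -0.994. The second of these is another probe set of LOC542355, which has a member as well. The members closest to overlapping arrays were Zm.13774.1.S1_at, Zm.6499.1.A1_at and Zm.16754.1.A1_at, and the closest just outside were Zm.5048.4.S1_at, Zm.2459.1.S1_at and Zm.16704.1.A1_at. In all 6 the highest polysomal and the lowest germinated total array were within 0.01 of each other, to 2 decimals. At the bound, M4 minus quiescent was -2.94, -2.90 and -2.89 in Zm.17202.1.S1_at, Zm.4568.1.A1_at and Zm.17655.1.S1_s_at inside, and 3.01, -3.07 and 3.14 in Zm.7370.1.A1_at, Zm.17472.1.S1_at and Zm.17055.1.S1_at outside.

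The median member was lower by 1.23 log2 units on polysomes, against -0.05 over all probe sets. Differences ran to -3.91, and 37 members were lower by 2 units or more. Array values of polysomal RNA were still above background for most of them. The 23 negative control probe sets set the background, at their 95th percentile, which was 4.29 to 4.81 log2 units across the samples, and 230 members lay above it in all 6 polysomal samples. In germinated total RNA 253 members lay above it in all 3 samples. The 5 members that were above it in no polysomal sample have only a bound there, at least 1.56-fold to 2.15-fold lower for 4 of them, and no fold for Zm.16447.1.S1_at, whose germinated total mean was also below background.

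**Figure D1:**
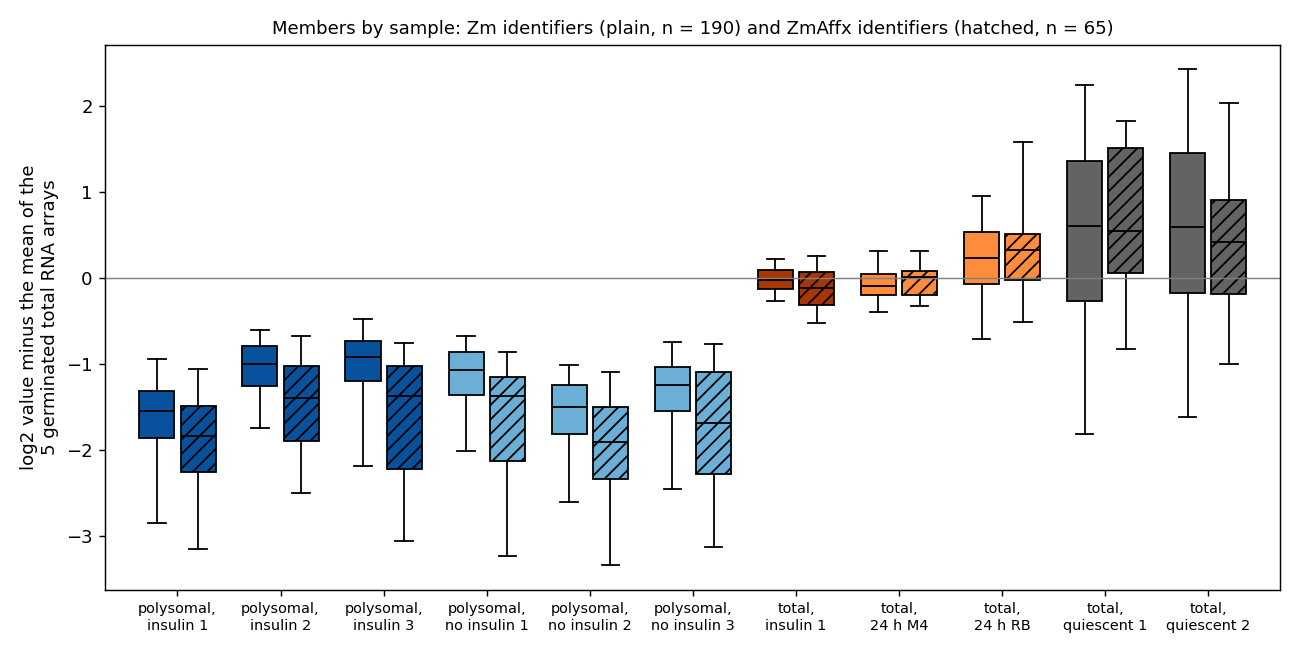
Members in each of the 11 biological samples, as the log2 value minus that member's mean over the 5 germinated total RNA arrays. Boxes span the quartiles with the median as a line, whiskers reach the 5th and 95th percentiles, plain boxes are the 190 members with Zm identifiers and hatched boxes the 65 with ZmAffx identifiers. All 6 polysomal samples lie below 0, with medians of -1.91 to -0.92, and both quiescent samples have medians above 0.

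The size of the deficit differed between polysomal samples. The median over the members, relative to their germinated total mean, was -1.62, -1.06 and -0.99 in polysomal samples 1, 2 and 3 with insulin, and -1.14, -1.58 and -1.27 in samples 1, 2 and 3 without insulin. Insulin sample 1 and no-insulin sample 2 were the lowest polysomal sample for 92 and 85 members, and insulin sample 2 for 3. The same samples had the largest excess of 3′ over 5′ signal on the EF1a control probe sets, a measure that grows as RNA or its labelled copy is shortened. It was 2.25 and 2.55 log2 units in insulin sample 1 and no-insulin sample 2, 0.88 to 1.45 in the other polysomal samples, 0.38 to 0.63 in germinated total RNA, and 1.15 and 1.35 in quiescent axes. Both samples were also the highest polysomal samples on the actin and ubiquitin controls, but there the other 4 overlapped germinated total RNA. Actin ran from 1.15 to 2.09 in these 4 and from 1.37 to 2.27 in germinated total RNA. Ubiquitin ran from 0.58 to 0.61 and from 0.27 to 0.61. The part of the 3′ excess in the result was not tested. Without insulin sample 1 and no-insulin sample 2 the members' median over the other 4 polysomal samples was -1.07. Of the 255, 153 remained at -1 or lower, 53 with ZmAffx and 100 with Zm identifiers.

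Chosen again without both samples, 168 probe sets met the rule, of which 153 were among the 255. The median of the 36 probe sets for spiked-in poly-A RNA was 7.37 to 10.84 in polysomal samples, 7.17 to 7.56 in germinated total RNA, and 9.47 and 9.71 in quiescent axes, and did not follow the members' order among polysomal samples. The hybridisation controls were low in 1 sample, at a median of 3.97 in polysomal insulin sample 2 against 8.98 to 10.69 in the other 10. That sample had the second smallest deficit of the members.

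Germinated total RNA was not uniform either. The members' median relative to the mean of its 5 arrays was -0.03 in total RNA with insulin, -0.09 in M4 and 0.25 in RB. RB was above M4 in 181 members (71.0%), against 49.9% of all probe sets. RB was higher than M4 by 1 log2 unit or more in 35 members (13.7%, against 5.33% of all probe sets) and lower by as much in 12 (4.71%, against 6.15%). RB was the highest of the 3 germinated total samples in 162 members. Chosen again without RB, 315 probe sets met the rule and shared 200 with the 255.

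Probe set identifiers on this array start with Zm or with ZmAffx. Of the 255, 65 (25.5%, exact 95% binomial interval 20.3% to 31.3%) had identifiers that start with ZmAffx, against 2179 of all 17555 (12.4%) and 4 of the 94 over-represented probe sets (4.26%). The interval covers counting error only, and probe sets that share a sequence are not independent. Put the other way, 2.98% of ZmAffx and 1.24% of Zm probe sets were members. The share was larger among larger deficits. It was 31 of 185 members between -1 and -1.5, 14 of 33 between -1.5 and -2, 16 of 32 between -2 and -3, and 4 of 5 beyond -3. The annotation table lists no gene for any of these 65, so they are given by identifier. The end of an identifier marks, in the manufacturer's naming, whether the probes can match more than the intended transcript. Of the 255, 59 (23.1%, against 12.5% of all probe sets) ended in other than plain _at, and 18 of these (7.06%, against 1.79%) ended in _s_at, which is given where probes match several transcripts.

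The 12 members with the largest deficits were ZmAffx probe sets in 7 cases, and none of the 12 has a gene in the annotation table. The largest belonged to ZmAffx.1488.1.S1_at. It read 6.56, 6.30 and 5.94 in polysomal RNA with insulin, 5.97, 6.41 and 5.87 in polysomal RNA without insulin, 10.05 in total RNA with insulin, 10.27 (M4) and 9.77 (RB) in 24 h total RNA, and 10.60 and 10.53 in quiescent axes. Polysomal values spanned less than 1 log2 unit and lay over 3 units below every total RNA value, and the quiescent samples were the highest. The difference was -3.91, which is 15-fold lower on polysomes.

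ZmAffx.1307.1.S1_at, at -3.47, read 8.86, 8.95 and 7.77 in polysomal RNA with insulin, 8.77, 8.49 and 8.44 in polysomal RNA without insulin, 11.99 in total RNA with insulin, 12.03 (M4) and 12.01 (RB) in 24 h total RNA, and 12.51 and 12.43 in quiescent axes. Its total RNA values were nearly level from quiescence to 24 h, and polysomal insulin sample 3 was the lowest of all. ZmAffx.1516.1.S1_s_at, at -3.26, read 7.46, 7.27 and 7.94 in polysomal RNA with insulin, 6.80, 7.30 and 7.52 in polysomal RNA without insulin, 10.36 in total RNA with insulin, 10.93 (M4) and 10.66 (RB) in 24 h total RNA, and 11.13 and 10.53 in quiescent axes. Again the polysomal values formed a separate low group, and 24 h and quiescent values overlapped.

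Zm.6734.1.S1_a_at, at -3.18, read 4.62, 6.004 and 4.79 in polysomal RNA with insulin, 6.17, 4.61 and 4.55 in polysomal RNA without insulin, 8.52 in total RNA with insulin, 7.77 (M4) and 8.93 (RB) in 24 h total RNA, and 9.63 and 8.90 in quiescent axes. Of its polysomal values, those of insulin sample 2 and no-insulin sample 1 stood above the other 4, which were close to background. ZmAffx.837.1.S1_at, at -3.13, read 6.12, 7.37 and 5.56 in polysomal RNA with insulin, 6.51, 6.04 and 6.15 in polysomal RNA without insulin, 8.84 in total RNA with insulin, 9.85 (M4) and 9.73 (RB) in 24 h total RNA, and 11.05 and 9.95 in quiescent axes. Polysomal and total RNA values did not overlap. Over single arrays, rather than the sample means listed, the highest polysomal minus the lowest germinated total value was -1.09.

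In other large deficits 24 h sample RB stood apart from the other total RNA samples. ZmAffx.1458.1.S1_at, at -2.81, read 6.79, 6.64 and 6.23 in polysomal RNA with insulin, 6.49, 7.04 and 6.31 in polysomal RNA without insulin, 8.75 in total RNA with insulin, 9.18 (M4) and 11.09 (RB) in 24 h total RNA, and 10.20 and 10.13 in quiescent axes. RB was above quiescent axes and M4 below them. Zm.13921.1.S1_x_at (-2.79), Zm.17655.1.S1_s_at (-2.67), Zm.13930.1.S1_x_at (-2.54) and ZmAffx.518.1.A1_s_at (-2.49) likewise had their highest germinated value in RB. Zm.16754.1.A1_at (-2.61) ran the other way. Its highest polysomal value was 7.04, against 7.05 in RB, 9.30 in M4 and 8.76 in total RNA with insulin. ZmAffx.1286.1.S1_at closed the 12 at -2.48.

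The probe sets whose values followed ZmAffx.1488.1.S1_at most closely over the 11 biological samples were ZmAffx.1307.1.S1_at (Pearson r = 0.990), ZmAffx.1516.1.S1_s_at (0.977), ZmAffx.1306.1.S1_s_at (0.972), Zm.17191.1.S1_at (0.968) and Zm.17335.1.S1_at (0.967). All but Zm.17191.1.S1_at are members, and that one differed by -0.93. Zm.17335.1.S1_at is the probe set of the alkaline alpha-galactosidase gene AGA1. These correlations rest largely on the step between polysomal and total RNA, which the rule selected.

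ZmAffx identifiers carry a running number, and the members were unevenly spread along it. Numbers below 800 held 15 members among 1253 probe sets (1.20%), 800 to 1099 held 22 of 512 (4.30%), 1100 to 1399 held 11 of 289 (3.81%) and 1400 upwards held 17 of 125 (13.6%). The share did not climb step by step. In steps of 100 it was 3.36% from 100 to 199, 0% from 200 to 499, 5.88% from 800 to 899, 1.82% from 900 to 999 and 15.1% from 1400 to 1499. The 8 probe sets numbered 1456 to 1463 were all members, at -1.42 to -2.81, and no other ZmAffx probe set has these numbers. Their 24 h minus quiescent differences ran from -1.81 to 0.06. From 1400 upwards, the 108 probe sets that were not members had a median polysomal difference of -0.17, and 70 of them lay outside the bound because they were lower in M4 than in quiescent axes by over 3 units. No source used here says what the numbers stand for.

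**Figure D2:**
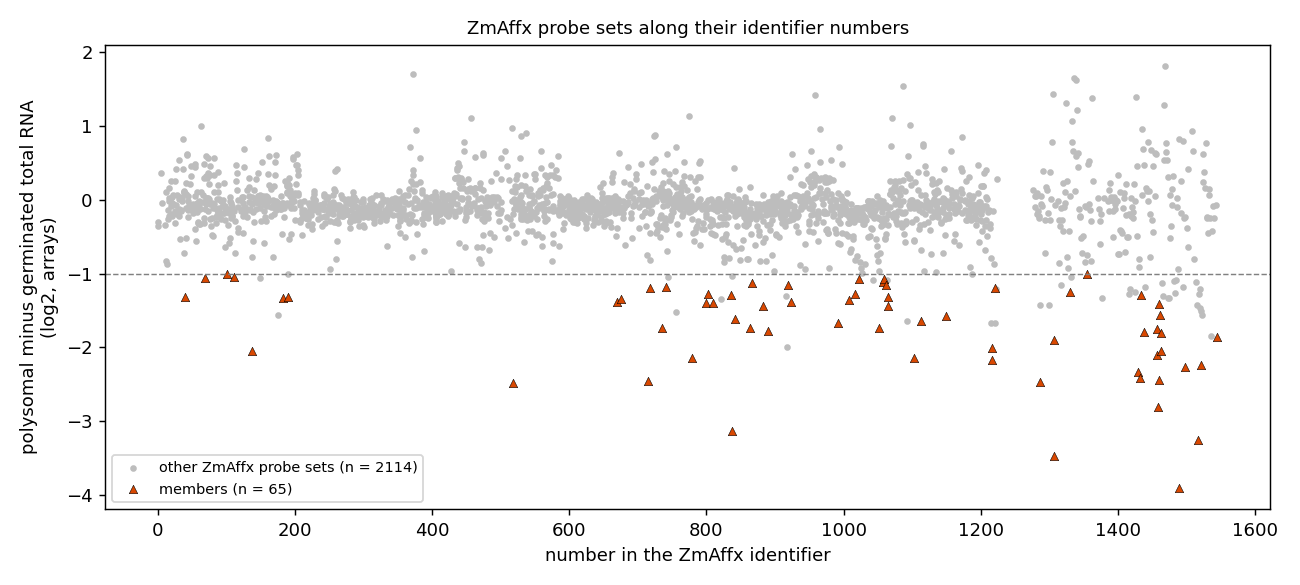
Polysomal minus germinated total RNA (log2, means over arrays) of all 2179 ZmAffx probe sets against the number in their identifier. Orange triangles are the 65 members and grey points the other 2114, and the dashed line marks the -1 threshold. Members are spread unevenly, with the highest share from 1400 upwards, and the 8 numbered 1456 to 1463 form a tight column.

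Identifiers also carry a letter, A or S, which in the manufacturer's naming marks the orientation of the probes relative to the source sequence. Among ZmAffx probe sets, 49 of 1194 with S and 16 of 985 with A were members (4.10% and 1.62%). Among Zm probe sets the counts were 85 of 5655 and 105 of 9721 (1.503% and 1.08%). The letter changed along the running number of the ZmAffx members. Below 800, 1 of the 15 members carried S, against 609 of all 1253 probe sets there, and from 800 to 1099 all 22 did, against 261 of 512. From 1400 upwards all 125 probe sets carried S. For 37 ZmAffx members the array holds a probe set of the same source sequence in the opposite orientation, and none of these 37 was a member. Their median polysomal difference was -0.19 (-1.03 to 0.00), against -1.36 (-3.13 to -1.01) in the members they pair with.

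The opposite probe sets were mostly dim. Of the 37, 9 were above background in all 3 germinated total samples and 21 in none, whereas all 37 members were above it in all 3. In both quiescent samples 14 of the 37 were above background. ZmAffx.837.1.A1_at, the partner of ZmAffx.837.1.S1_at, differed by -1.03, and averaged 5.34 in germinated total RNA against 7.40 in quiescent axes. ZmAffx.715.1.S1_at, the partner of ZmAffx.715.1.A1_s_at, differed by -0.08, and averaged 5.16 in germinated total RNA against 8.79 in quiescent axes. Among Zm identifiers 31 members had 31 such partners, in 32 pairs, and again none of the partners was a member. The median difference was -1.18 in these members and -0.22 in the partners. A dim probe set cannot show a deficit, so the pairs give no measure of strand beyond those partners that were above background.

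**Figure D3:**
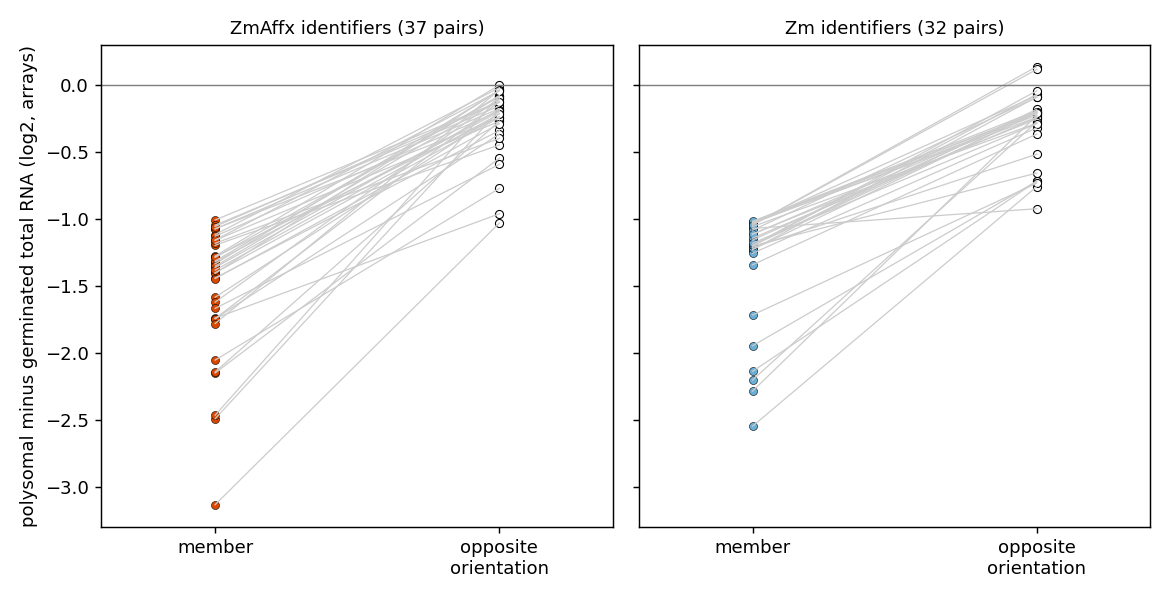
Polysomal minus germinated total RNA (log2, means over arrays) of members (filled) and of the probe sets of the same source sequence in the opposite orientation (open), joined by lines. The 37 ZmAffx pairs are on the left and the 32 Zm pairs on the right. Members lie at -1 or lower by the rule, and 1 partner does.

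Several members measured the same gene or source cluster. The 255 fell into 238 clusters by identifier, and 12 clusters held more than 1 member, with 29 members in all. Cluster Zm.14501 held 4 members, at -2.14, -1.94, -1.31 and -1.03. They were bright in quiescent axes, with means of 13.30 to 13.81, and polysomal insulin sample 1 and no-insulin sample 2 were the lowest in each. Zm.14789 held 3, at -2.45, -1.93 and -1.80, and Zm.3081 and Zm.3770 held 3 each. A shared cluster is no guarantee of a deficit in every probe set. The 170 other probe sets of the members' clusters had a median difference of -0.22, 8 of them were at -1 or lower, and 34 had all polysomal below all germinated total arrays. Of all 17555 probe sets, 392 were at -1 or lower and 1232 (7.02%) had such separate arrays. Both are smaller shares than among the 170.

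The annotation table pairs 21 of the members with 1 gene each, 19 genes in all, against 1452 of all probe sets. It names no gene for the other 234. Differences of the 21 ran from -1.01 to -2.03. Of the 19 genes, only EMB5 (LOC542280) was among the 37 members at -2 or lower. Gene names are those of an old platform annotation, updated through RefSeq where the gene number was found there, which it was for 17 of the 19.

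Among seed and stress genes, EMB5 encodes a late embryogenesis abundant protein, a hydrophilic protein that accumulates as the seed dries. It read 9.13, 10.43 and 8.96 in polysomal RNA with insulin, 10.60, 9.33 and 9.47 in polysomal RNA without insulin, 11.93 in total RNA with insulin, 11.28 (M4) and 11.995 (RB) in 24 h total RNA, and 13.42 and 13.47 in quiescent axes. Quiescent axes were the highest, germinated total RNA stood between, and polysomal samples were the lowest, with insulin sample 2 and no-insulin sample 1 above the others. The polysomal deficit was 4.08-fold, and the 24 h samples differed from quiescent axes by -1.81 (SE 0.54, limma adjusted p = 0.0214). Since the rule used the 24 h arrays, this p-value is a description and no independent test.

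The hsp70-5 gene, of the family of chaperones that bind unfolded proteins, had 3 members in cluster Zm.3081, at -1.40, -1.36 and -1.14, and no further probe set in it. The first read 11.44, 11.70 and 12.14 in polysomal RNA with insulin, 11.74, 11.72 and 11.77 in polysomal RNA without insulin, 13.03 in total RNA with insulin, 13.24 (M4) and 13.20 (RB) in 24 h total RNA, and 13.30 and 13.46 in quiescent axes. Total RNA held this mRNA at nearly the same level in all 5 samples, and every polysomal value lay below them. The 3 probe sets differed between 24 h and quiescent axes by -0.16, -0.37 and -0.16, none of them called. They may share probes and are not separate observations.

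The dehydration-response factor gene dbf1 (LOC542569), an AP2/ERF transcription factor, read 7.90, 8.01 and 7.72 in polysomal RNA with insulin, 7.96, 7.53 and 7.89 in polysomal RNA without insulin, 9.40 in total RNA with insulin, 9.11 (M4) and 9.52 (RB) in 24 h total RNA, and 9.16 and 9.01 in quiescent axes. Its polysomal values were 2.78-fold lower on average, and quiescent and 24 h values overlapped. DIP1 (LOC732783), which encodes a protein that interacts with DBF1, differed by -1.12. It ran from 9.32 to 9.81 in polysomal samples, against 10.57 to 10.98 in germinated total RNA. The catalase gene cat1 (LOC542369), whose product breaks down hydrogen peroxide, differed by -1.04.

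The expansin gene expa2 (LOC542648), whose product loosens cell walls, read 8.04, 10.02 and 8.96 in polysomal RNA with insulin, 9.92, 8.44 and 8.77 in polysomal RNA without insulin, 10.69 in total RNA with insulin, 10.13 (M4) and 10.90 (RB) in 24 h total RNA, and 7.39 and 7.33 in quiescent axes. Quiescent axes were lowest here, and polysomal samples stood between them and germinated total RNA. At 24 h expa2 was higher by 3.16 (SE 0.63, limma adjusted p = 0.00284), while its polysomal values were 2.79-fold below germinated total RNA. This p-value also comes from arrays that the rule used, and is a description. The cyclin gene cycD2 (LOC541915), whose protein acts with cyclin-dependent kinases at entry to the cell cycle, read 8.72, 9.52 and 9.83 in polysomal RNA with insulin, 9.51, 8.82 and 9.45 in polysomal RNA without insulin, 10.61 in total RNA with insulin, 10.31 (M4) and 10.77 (RB) in 24 h total RNA, and 10.69 and 10.75 in quiescent axes. Total RNA values of all ages overlapped, and polysomal values were lower by 2.32-fold.

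A further 4 annotated members are, like dbf1, of genes whose products bind or modify chromatin, DNA or RNA. LOC542355, an HD2-type histone deacetylase gene of plants, differed by -1.23 in its member probe set and by -0.997, just short of the threshold, in another. SPT16 (LOC542546), a subunit of the histone chaperone FACT, differed by -1.05. The initiator-binding protein gene ibp2 (LOC542534) differed by -1.11, and was higher at 24 h than in quiescent axes by 1.80 (SE 0.32, limma adjusted p = 0.00141). Here too the rule used the 24 h arrays, so the p-value is a description. The cfm6 gene (LOC732768), of the CRM-domain family of RNA-binding proteins known for splicing in organelles, differed by -1.10.

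The metabolic genes included AGA1 (LOC606463), whose alkaline alpha-galactosidase releases galactose from the raffinose-family sugars stored in seeds. It read 9.28, 9.63 and 9.87 in polysomal RNA with insulin, 9.77, 9.66 and 9.27 in polysomal RNA without insulin, 11.30 in total RNA with insulin, 11.38 (M4) and 11.13 (RB) in 24 h total RNA, and 12.03 and 11.54 in quiescent axes. Polysomal values lay below all total RNA values, and the polysomal deficit was 3.3-fold. CKS (LOC542667), the enzyme that activates the cell wall sugar KDO, differed by -1.22, and HMT-3, a homocysteine S-methyltransferase that makes methionine, by -1.08. The transglutaminase gene tgase (LOC542049) differed by -1.01, and the ubiquitin-conjugating enzyme gene ubc7 (LOC542600) by -1.01, with 4 of its 6 polysomal values above background. No role is given here for ROA4 (-1.23), LOC541824 (-1.13) and psiP (LOC542027, -1.09).

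**Figure D4:**
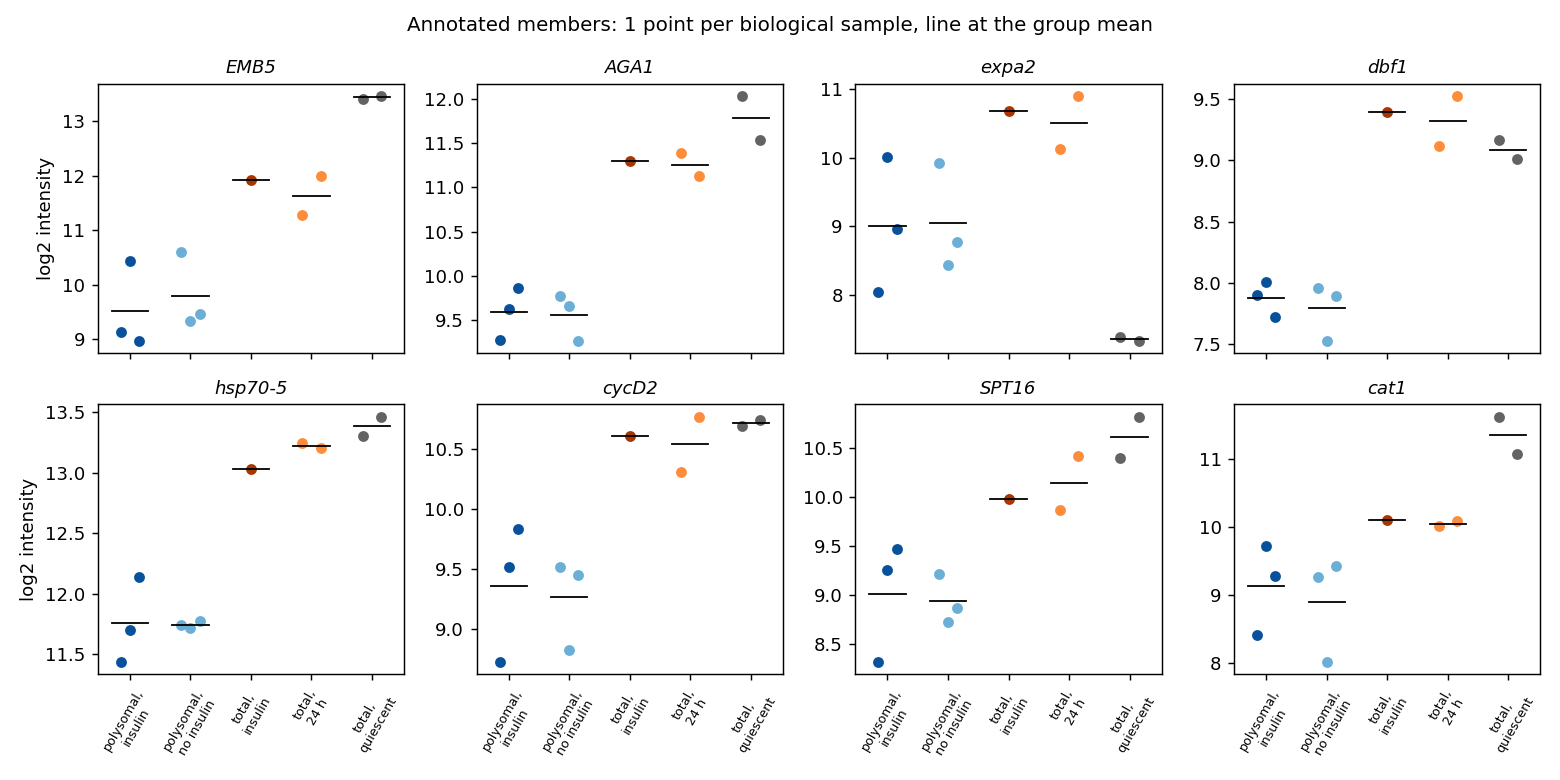
Log2 intensity of 8 annotated members, with 1 point per biological sample and a line at the group mean (n = 3, 3, 1, 2 and 2 from left to right). For hsp70-5 the probe set with the largest deficit is drawn, and each panel has its own axis. Polysomal values lie below germinated total values in every panel, both quiescent values are the highest for EMB5, AGA1, hsp70-5 and cat1, and the lowest for expa2.

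No probe set that the annotation table gives to a listed translation gene was a member, but 234 of the members have no gene there and could not be checked. None of 27 probe sets of 18 cytosolic ribosomal protein genes was a member, and their differences ran from -0.81 to 0.52 with a median of 0.10. None of 15 probe sets of 10 translation factor genes was one, at -0.73 to 0.28 with a median of 0.03. Of 10 histone probe sets none was one, at -0.12 to 0.92. Over all probe sets the median was -0.05. Of the 15 translation factor probe sets, 3 had every polysomal below every germinated total array, GOS2 lowest at -0.62, and 1 had every one above. Of the 27 ribosomal protein probe sets, 2 were separate below, RPL19 lowest at -0.81, and 3 above. Over all 17555, 1232 (7.02%) were separate below and 996 above. The member Zm.3699.3.S1_at, at -1.73, has no gene in the table, but its source cluster Zm.3699 also holds 4 probe sets listed for the ribosomal protein gene rps6-1, which differed by -0.01 to 0.35. A shared cluster need not mean a shared gene, since cluster Zm.34 holds both the member of ubc7 and a probe set listed for the storage protein gene gz27. The single annotated gene for an organelle ribosomal protein, prpl35-1, differed by 0.16. No annotated gene was placed under transposable elements or non-coding RNA.

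The stress and seed lists were divided. Of 12 heat shock probe sets the 3 of hsp70-5 were members, and a 4th, of hsp70-4, had separate arrays at -0.82. The small heat shock genes, hsp101 and HSP60-1 lay between 0.22 and 0.66, with polysomal and total arrays overlapping. In each of their probe sets RB was the lowest germinated total sample. For hsp101 it read 8.38, against 11.62 in M4, 11.67 in total RNA with insulin and a polysomal mean of 11.36. All 7 probe sets of LEA proteins and dehydrins were below 0, at -2.03 to -0.12, but EMB5 was the only member. Among the 4 of oleosins and globulins, the storage globulin gene glb1 differed by -2.34 with separate arrays, and was kept out by the bound, since M4 was 4.54 below quiescent axes. Its polysomal values ranged from 5.77 to 9.09. The dehydrin gene rab17, at -0.88, and the oil-body gene ole16, at -0.84, overlapped between polysomal and total RNA. Of 6 probe sets for RNA-binding and splicing factors, 1 was a member, cfm6.

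The labelled tissue was checked against markers. All 9 probe sets of 6 embryo marker genes (EMB5, glb1, glb2, rab17, ole16 and vp1) were above background in all 11 samples. Of 20 probe sets of 12 endosperm marker genes, which dissected axes should lack, 13 were above background in no sample and 4 in every sample. EMB5 was the only member on either list. Median differences were -0.30 for the embryo and -0.05 for the endosperm probe sets.

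The level in quiescent axes was high for most members. Mean log2 values ran from 3.57 to 13.81 with a median of 9.60, against 7.33 over all probe sets and 5.93 over the 94 over-represented ones. A brighter probe set need not stand for a more abundant mRNA, since probes differ in brightness. In both quiescent samples 252 of the 255 were above background (98.8%, against 80.2% of all probe sets), including all 65 ZmAffx members (56.7% of all ZmAffx probe sets). By choice, members had to be bright enough in germinated total RNA to leave room for a deficit.

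The members with the highest quiescent means were Zm.14501.1.A1_at (13.81), Zm.14789.3.S1_a_at (13.75), Zm.3699.3.S1_at (13.60) and Zm.14501.4.S1_a_at (13.53). Those with the lowest were Zm.15875.1.A1_at (3.57) and Zm.16447.1.S1_at (4.00), both not above background there, Zm.6822.2.S1_a_at (4.71) and ZmAffx.111.1.A1_at (4.79). Zm.15875.1.A1_at read 3.38, 4.06 and 3.64 in polysomal RNA with insulin, 3.71, 3.46 and 3.40 in polysomal RNA without insulin, 5.09 in total RNA with insulin, 6.07 (M4) and 4.25 (RB) in 24 h total RNA, and 3.42 and 3.73 in quiescent axes. Only M4 and total RNA with insulin rose above background in it.

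Set against the germinated samples, 214 members (83.9%) had every quiescent array above every polysomal array, against 39.1% of all probe sets. For 120 members (47.1%, against 31.7% of all) every quiescent array was also above every germinated total array. In 12 members the quiescent arrays lay strictly between the polysomal and the germinated total arrays, in 8 they lay below every polysomal array (3.14%, against 28.6% of all), and in 115 they overlapped at least 1 of these groups. The median of the polysomal mean minus the quiescent mean was -1.98, and 202 members were lower by 1 or more, against 3 higher by as much. Over all 17555 probe sets this median was -0.19, with 3535 lower and 3453 higher by as much. The rule chose low polysomal arrays and held M4 within 3 units of quiescent axes. Quiescent arrays above polysomal arrays thus follow largely from the rule, and nothing is read from these shares.

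Between 24 h and quiescent axes the members' median difference was -0.47 (quartiles -1.28 and 0.18), against -0.17 over all probe sets, and -0.55 with M4 alone and -0.39 with RB alone. Lower by 1 log2 unit or more were 77 members (30.2%, against 15.8% of all probe sets), within 1 unit were 152 (59.6%, against 67.1%) and higher by 1 or more were 26 (10.2%, against 17.0%). In the limma fit 76 members (29.8%) were called lower and 28 (10.98%) higher at an adjusted p under 0.05, against 25.8% and 21.3% of the 17582 probe sets tested. With median centring of each array the members' calls were 104 lower and 21 higher, and those of all probe sets 7351 and 3062. The rule used the 24 h arrays, as the higher side of the polysomal comparison and in its bound, so nothing is read from these shares. The median was -0.37 in ZmAffx and -0.52 in Zm members, against -0.31 and -0.13 in all ZmAffx and all Zm probe sets. Within 1 unit were 50 of the 65 ZmAffx members (76.9%, against 77.0% of all ZmAffx probe sets).

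**Figure D5:**
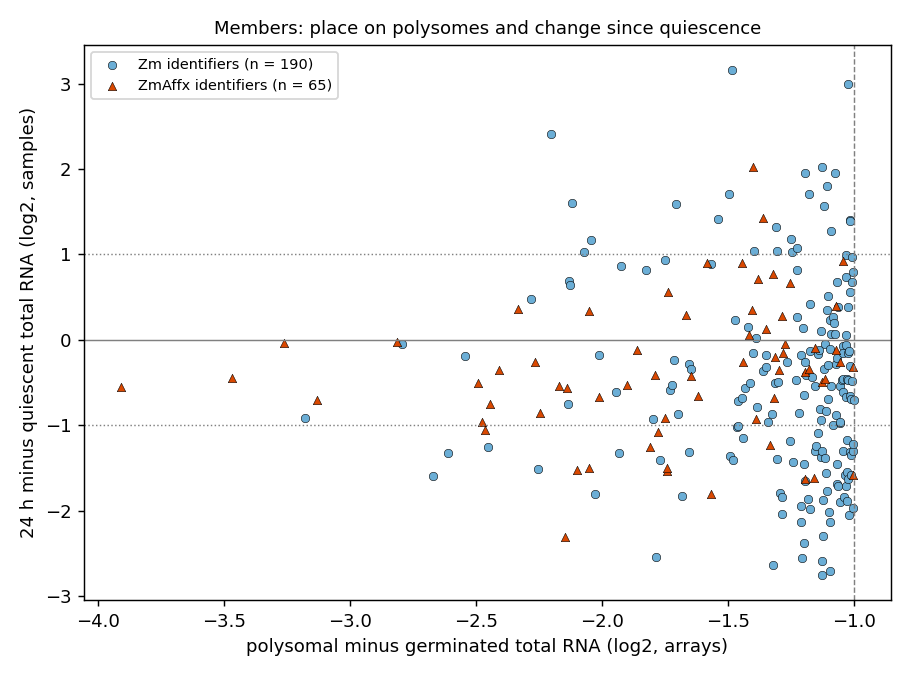
Polysomal minus germinated total RNA (log2, arrays) on the horizontal axis against 24 h minus quiescent total RNA (log2, biological samples) on the vertical axis for the 255 members. Blue circles are Zm and orange triangles ZmAffx identifiers, the dashed line marks the -1 threshold and the dotted lines mark a difference of 1 either way. Of the members 152 lie between the dotted lines, and the 5 beyond -3 on the horizontal axis are all among them.

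The median polysomal deficit was -1.19 in the 77 members lower at 24 h, -1.26 in the 152 within 1 unit and -1.28 in the 26 that were higher. The first class held 13 ZmAffx members, the second 50 and the third 2. Of the 21 annotated probe sets, 5 were called lower at 24 h (EMB5, CKS, LOC541824, HMT-3 and ubc7), 2 higher (expa2 and ibp2) and 14 were not called. On the array as a whole, 25.8% were called lower and 21.3% higher. The rule used the 24 h arrays, so these calls are a description. The largest increases among all members were 3.16 in expa2 and 3.00 in Zm.17990.1.S1_at.

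As calls of the same contrast that chose them, 86 of the 255 were called lower in polysomal than in total RNA without insulin (0.774% of all probe sets tested) and 1 with insulin (0.00569%). These counts moved with single samples, as did those of all probe sets. Without polysomal sample 1, 2 or 3 the first was 13, 19 or 6, where 13, 25 and 6 probe sets in all were called lower. With every sample 136 were called lower in all. Without 24 h sample M4 the members' median difference was -1.60, and without RB it was -1.26. The member called with insulin was ZmAffx.1488.1.S1_at. Medians of the 2 fitted differences were -1.38 without and -1.21 with insulin. Both share no samples but share the fit, and the rule used all of them.

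The comparison that the rule did not use was that of insulin. No member was called between polysomal RNA with and without insulin, as was true of all 17582 probe sets (0%). The fit did not pair samples across the insulin groups. At an unadjusted p under 0.05 there were 2 members (0.784%), against 57 of all (0.324%). The members' median difference was 0.12, against -0.01 over all probe sets, and 194 of the 255 (76.1%) were higher with insulin, against 48.2% of all probe sets. This tilt depended on single samples. The median was -0.01 with 123 members higher without no-insulin sample 2, 0.00 with 126 higher without insulin sample 2, 0.00 with 128 higher without insulin sample 3, 0.21 with 214 higher without no-insulin sample 1, and 0.33 with 218 higher without insulin sample 1. The largest differences were 0.99 (SE 0.54) in Zm.16754.1.A1_at and 0.94 (SE 0.37) in ZmAffx.1457.1.S1_at, and no member differed by more than 1. The 95% interval of the difference lay within 2-fold either way for 179 members (70.2%), against 91.6% of all probe sets. For the other members a 2-fold change was within the interval.

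Each polysomal insulin group had 1 sample with a large deficit and a high 3′ over 5′ signal, sample 1 with insulin and sample 2 without. Without both, the median difference over the members was 0.19 and 204 were higher with insulin, within the range of -0.01 to 0.33 and 123 to 218 from leaving out 1 sample. In total RNA, no member was called between insulin and 24 h axes, again as in all 17582 (0%), with 5 members at an unadjusted p under 0.05 (1.96%, against 2.43% of all). The median difference was -0.10, against 0.04 over all probe sets. Only 1 biological sample had insulin there, and its spread was assumed to be that of the other groups. Neither time in medium nor an insulin level is given for the 24 h axes. Insulin and 2 h in medium therefore cannot be told apart in this difference, nor in any comparison that uses it. Without 24 h sample M4, 9 members and 416 probe sets in all were called. The 95% interval lay within 2-fold for 65 members (25.5%), against 63.2% of all probe sets. The difference between both insulin effects was called for no member and for none of the 17582 probe sets, with 6 members at an unadjusted p under 0.05 (2.35%, against 1.72% of all).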

How the data were processed

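RNA of maize embryonic axes was hybridised to Affymetrix maize arrays. The authors deposited 1 table of 17734 probe sets on 14 arrays, which was used as log2 intensity from its range (2.60 to 14.38), since no header states the scale. No source used here states the background correction, the normalization or the probe summary, and limma is the only tool in the submitters' processing notes. The 179 control probe sets left out of the rule include 27 named for maize genes, which were tested with the other 17555.

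Technical arrays were averaged within a biological sample, except in the rule, which takes arrays. All 5 groups were fitted together with limma 3.58.1 (lmFit, eBayes) in R 4.3.3, with 6 residual and 3.21 prior degrees of freedom, and p-values were adjusted by Benjamini-Hochberg over 17582 probe sets. The labels do not say whether replicates came from separate seed lots, so a p-value sets a difference only against the spread among the samples at hand, and the number of arrays limits the precision. The fit and the rule were run on simulated data with 200 changed probe sets, only to check the calculation. The simulated noise was independent between samples, unlike that of the polysomal samples, so it gives no error rate for these data.

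Genes came from a platform annotation in which 1453 of the 17555 probe sets have a gene and 1 has several, and 1377 were found in the RefSeq table by gene number. No coordinates are given, since the array has no genome build here. The members, the gene lists and the marker lists were chosen with earlier results of these data known, and the gene lists were filled in after values had been seen. The members named are the 12 with the largest deficit, the 3 nearest each threshold inside and outside, the 4 highest and lowest in quiescent axes, those of the gene lists or of the clusters with most members, those annotated with 1 gene, and the 5 nearest in profile to the first. Other probe sets named were chosen after their values were seen. Alternatives were quantile normalization, median centring, leaving out the dimmest 25%, first arrays alone, only the compared groups, a trend and robust prior, each sample left out, the replicate number as a block, and other forms of the rule. Tables were handled with pandas 2.3.3 and figures drawn with matplotlib 3.10.9.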

Additional observations from a re-analysis of the deposited data

How the results depend on the processing

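Polysomal samples with the same replicate number deviated alike for number 3, but not for numbers 1 and 2. Deviations from the group means correlated at -0.63, -0.44 and 0.60 for numbers 1, 2 and 3, against 0.77 between insulin sample 2 and no-insulin sample 1 and 0.70 between insulin sample 1 and no-insulin sample 2. These pairs were seen in the data and are not given by the labels, so no fit used them as a block. With the replicate number as a block, 0 members were called for insulin in polysomal RNA, as without it. That count was also 0 in all other alternatives for it.

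Members called lower on polysomes without insulin numbered 8 when only the groups compared were fitted (86 as reported), and 6 to 165 with single samples left out. With insulin they numbered 0 with only the compared groups, 2 with the trend and robust prior, and 0 to 2 with single samples left out. For insulin in total RNA the range was 0 to 9. Counts over the whole array moved as well. Probe sets called lower on polysomes without insulin were 136 as reported, 8 with only the compared groups and 6 without no-insulin sample 3. The changes are thus not particular to the members, and their cause was not tested.

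Chosen at a difference of -1.5 or lower, 70 members remained, with 48.6% ZmAffx identifiers and medians of -2.02 for the polysomal difference and 9.93 for the quiescent level. Without both polysomal samples with the highest EF1a 3′ over 5′ signal, a choice made after seeing the data, there were 168, with 35.7% ZmAffx identifiers and a quiescent median of 9.74. The quiescent median was 9.95 with quantile normalization, 9.93 with median centring, 9.73 with technical arrays averaged first, 9.59 with no bound, and 9.61 for members above background in all germinated total samples. With single samples left out it was 8.66 to 9.89, the lowest without RB. The 24 h minus quiescent median was -0.69 with median centring, under which the median of all probe sets was -0.44 (-0.17 as deposited), and -0.57 to -0.32 with single samples left out. The number of members ranged from 209 to 343 with single samples left out, and the ZmAffx share from 21.4% to 29.7%. The polysomal difference of each of the 12 largest and 21 annotated members kept its sign under quantile normalization and median centring. All were chosen for a difference of -1 or lower, so the kept sign is a description and no test. Chosen again under quantile normalization, 230 probe sets met the rule, 218 of them among the members. Under median centring 209 met it, 206 of them among the members. No sample was flagged for lying apart within its group, since no group has over 3 samples.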
